A study of Mus musculus with 6 samples.

Results

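H3K27ac, a histone mark of active promoters and enhancers, was examined at the loci of Pax3 and Pax7 in C2C12 cells, a myoblast line from mouse that fuses into myotubes when growth factors are withdrawn. The members are the peaks of 3 deposited H3K27ac lists that overlapped a window of 150 kb around Pax3 (mm9 chr1:78070000-78220000) or of 155 kb around Pax7 (mm9 chr4:139265000-139420000) by at least 1 bp. They numbered 100 of 243962 peaks, with 52 at Pax3 and 48 at Pax7. The lists come from C2C12 cells in proliferation, after 36 h of differentiation and after 72 h of differentiation, with 1 H3K27ac library per stage. All 3 groups share the cell line, with no genetic change or drug named in the labels, and each library was made from 4 separate ChIP assays whose DNA was combined. There is no replicate library, so differences between stages are described without a test, and the interval beside a fragment number covers counting error only. The study as a whole concerns TAp63, a p53-family transcription factor, in muscle differentiation.

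Pax3 and Pax7 are closely related transcription factors with a paired domain and a homeodomain. Pax3 acts in muscle progenitors of the embryo, including those that migrate into the limbs, and Pax7 marks satellite cells, the resident stem cells of adult muscle. Both act upstream of Myf5 and Myod1, the myogenic regulatory factors that commit cells to the muscle lineage, and satellite cells switch Pax7 off as they differentiate while Myog comes on. C2C12 cells descend from cells of adult mouse muscle and are widely used as a model of committed myoblasts. An H3K27ac peak is a signal on chromatin and gives no level of RNA or protein.

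The whole lists held 57101, 89717 and 97144 peaks in the order of the stages and covered 31.3, 56.0 and 63.7 Mb. Fragment numbers at peak summits were recovered from the deposited fold and p-value, and relative to the proliferation library the ChIP depth so obtained was 1.19 (36 h) and 1.1 (72 h). At the genome background, a call needed 9 fragments at the summit in proliferation, 9 at 36 h and 8 at 72 h. "Depth-scaled" fragments below are summit fragments divided by this relative depth. Pax3 spans 95.9 kb and Pax7 96.5 kb in RefSeq GRCm38.p6, so each window also holds flanking sequence. The protein-coding genes next to Pax3 in that annotation are Epha4 and Gm2102, and those next to Pax7 are Tas1r2 and Klhdc7a. No mm9 gene model was used here, so peaks are given by position and were not assigned to promoters, introns or neighbouring genes. Pax7 is read towards lower coordinates in that annotation. Pax3 is taken to be read the same way from general knowledge of the gene, not from a file used here. The 5′ end then lies on the high-coordinate side of each window.

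Neither locus lacked H3K27ac peaks at any stage. The Pax3 window held 19 peaks in proliferation, 19 at 36 h and 14 at 72 h, which covered 7732, 10378 and 6683 bp. The Pax7 window held 11 peaks in proliferation, 20 at 36 h and 17 at 72 h, which covered 8306, 9893 and 8400 bp. Both loci thus had their longest coverage at 36 h. As shares of the window, coverage at Pax3 was 5.15%, 6.92% and 4.46% in the order of the stages, and at Pax7 it was 5.36%, 6.38% and 5.42%. Of all consecutive windows of the same length along chromosomes 1 to 19 and X, 44.9% (150 kb) and 45.7% (155 kb) had a peak in each of the 3 lists. In the separate lists, at least 1 peak was present in 48.1%, 52.2% and 55.9% of 150 kb windows and in 48.7%, 52.7% and 56.6% of 155 kb windows, in the order of the stages. A window of this size without any peak was thus common, and neither locus was such a window. Pax3 coverage was above that of 93.7% of windows in proliferation, 90.6% at 36 h and 82.3% at 72 h. Pax7 coverage was above that of 94.2%, 89.6% and 85.5% of windows. In covered length, both loci thus stood lower among windows at each later stage. In peak number, Pax3 was above 96.7%, 91.8% and 85.9% of windows and Pax7 above 89.6%, 92.1% and 88.7%. By this measure, in the full lists, Pax7 stood highest at 36 h.

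**Figure D1:**
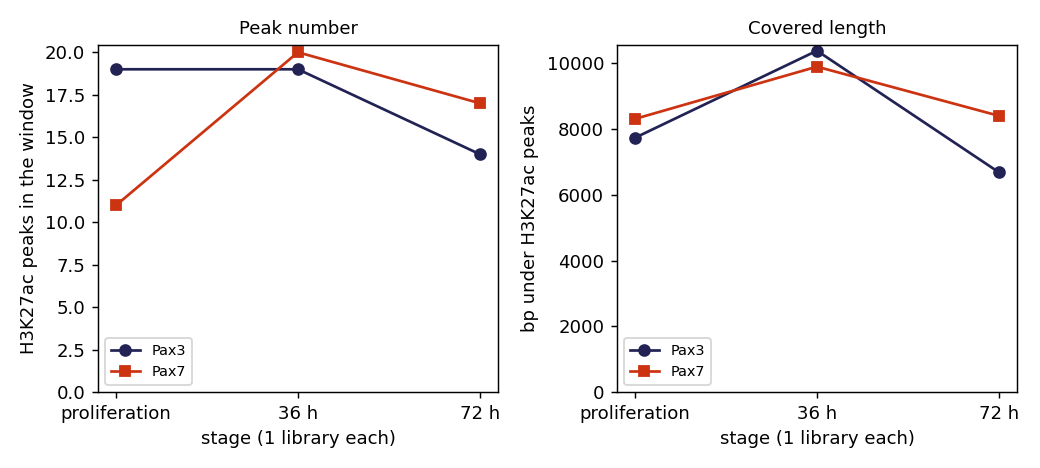
Number of H3K27ac peaks (left) and base pairs under peaks (right) in the Pax3 and Pax7 windows at each stage, 1 library per stage, so no error bars are drawn. Pax3 had 19, 19 and 14 peaks and Pax7 had 11, 20 and 17, and coverage was highest at 36 h at both loci, with 10378 bp at Pax3 and 9893 bp at Pax7.

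Coverage at the progenitor loci did not keep pace with the whole lists. At 72 h, the Pax3 window had 0.864 times the covered length of proliferation and the Pax7 window 1.01 times, while the whole list had 2.03 times. At 36 h the ratios to proliferation were 1.34 at Pax3 and 1.19 at Pax7, against 1.79 for the whole list. Among windows of 150 kb with peaks in both lists, 16.1% had less covered at 72 h than in proliferation, as Pax3 did. The same share was 16.2% for windows of 155 kb, and 21.2% and 21.4% at 36 h against proliferation. Between 72 h and 36 h, coverage was 0.644 times at Pax3 and 0.849 times at Pax7, and 34.0% of windows of either length had less covered at 72 h than at 36 h. The 36 h maximum depended on how the lists were cut. Cutting every list to the number of peaks in the shortest, 57101, left the proliferation list whole. Coverage was then 7732, 7555 and 4502 bp at Pax3 and 8306, 7538 and 6861 bp at Pax7, highest in proliferation at both loci. With a −log10 q of at least 5 in every list, Pax3 coverage was 5439, 7748 and 4502 bp, still highest at 36 h. At Pax7 it was 7773, 7685 and 7232 bp, highest in proliferation.

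**Figure D2:**
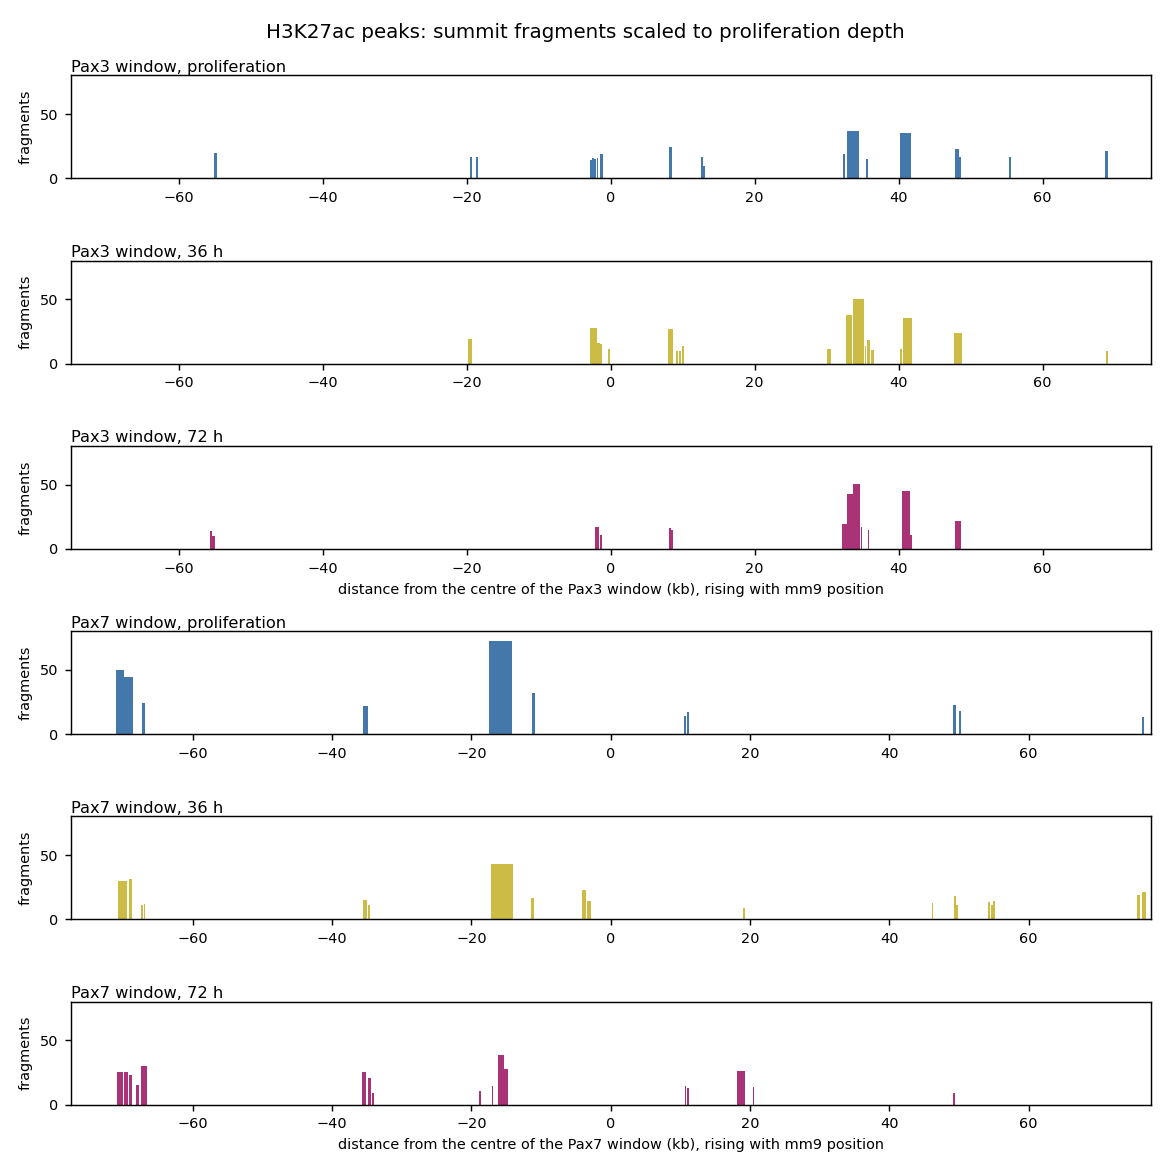
H3K27ac peaks along the Pax3 window (upper 3 panels) and the Pax7 window (lower 3 panels) at each stage. Each bar is a peak, drawn at its own width with a minimum for visibility, and its height is the number of summit fragments scaled to the depth of the proliferation library. At Pax3 the tallest bars stand right of the centre at every stage, and at Pax7 the tallest bar is the one left of the centre, at 72.0 fragments in proliferation, 42.7 at 36 h and 38.3 at 72 h.

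At Pax3, H3K27ac was concentrated at the high-coordinate end of the window, taken as the 5′ side, at every stage. The 50 kb at the high-coordinate end held 65.7% of the covered length in proliferation, 64.8% at 36 h and 73.1% at 72 h. The middle 50 kb held 30.3%, 35.2% and 17.4%. Merging overlapping peaks of the 3 lists gave 20 regions at the locus, 6 of them with a peak at every stage, and these 6 held 78.5%, 76.0% and 90.4% of the covered length in the order of the stages. Of the 20 regions, 11 were called at a single stage, as were 46.5% of all regions of the genome. Fragments given for a region at either locus are those of its tallest peak in each list. These summits can lie at different sites within the region. Beyond the 5 peaks with the highest −log10 q in each list, the authors' −log10 q at this locus was 1.42 to 6.91 in proliferation, 1.82 to 14.6 at 36 h and 2.92 to 6.67 at 72 h.

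The strongest Pax3 region at 36 h and 72 h was chr1:78177125-78180161, 3037 bp wide. Its tallest peak had 37 summit fragments in proliferation (95% Poisson interval 26.1 to 51), 60 at 36 h (45.8 to 77.2) and 55 at 72 h (41.4 to 71.6). Scaled for depth these are 37.0, 50.3 and 50.2 fragments, so both differentiation libraries lay above proliferation. The ratio was 1.36 at 72 h over proliferation, with an interval of 0.878 to 2.12 that includes equality, and 1.36 (0.887 to 2.11) at 36 h over proliferation. The authors' fold was 10.6 in the proliferation list, 16.4 in the 36 h list and 15.7 in the 72 h list. In −log10 q the region exceeded 84.2% of the proliferation list, 92.2% of the 36 h list and 91.0% of the 72 h list.

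A second strong Pax3 region, chr1:78185175-78186888, had 35 summit fragments in proliferation (24.4 to 48.7), 42 at 36 h (30.3 to 56.8) and 49 at 72 h (36.3 to 64.8). After scaling these were 35.0, 35.2 and 44.7 fragments, highest at 72 h. The ratio of 72 h to proliferation was 1.28, with an interval of 0.811 to 2.03. Towards the 5′ side of it lay chr1:78192738-78193754, with 23, 28 and 24 summit fragments in the order of the stages. By its tallest peaks it was the most even region of the locus, at 23.0, 23.5 and 21.9 depth-scaled fragments. The ratio of 72 h to proliferation was 0.952 (0.515 to 1.77). These summits lay at different sites, chr1:78193229 in proliferation, chr1:78193114 at 36 h and chr1:78193528 at 72 h. A lower proliferation peak with its summit at chr1:78193596, nearer that of 72 h, had 17 fragments.

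In the middle of the Pax3 window, 2 further regions were called at every stage and had their tallest peak at 36 h. The first, chr1:78142064-78143898, had 19 summit fragments in proliferation, 33 at 36 h and 19 at 72 h. These summits lay at different sites, chr1:78143599 in proliferation, chr1:78142456 at 36 h and chr1:78143093 at 72 h. A lower 36 h peak with its summit at chr1:78143593, beside that of proliferation, had 18 fragments, 15.1 when depth-scaled. The second, chr1:78153029-78153673, had 24, 32 and 18. Depth-scaled, their ratios of 72 h to 36 h were 0.627 (0.337 to 1.14) and 0.613 (0.324 to 1.12), so neither interval excludes equality. The sixth region, chr1:78180291-78181006 beside the strongest one, had 15, 22 and 16 fragments. None of the 6 regions had at least 1.5 times more or 1.5 times fewer depth-scaled fragments at 72 h than in proliferation. Among the 28908 regions of the genome with peaks at every stage, 24.7% were at least 1.5 times higher and 10.5% at least 1.5 times lower in that comparison. At 36 h against proliferation again none of the 6 passed in either direction, where 15.1% of regions were higher and 19.1% lower. With local background subtracted, chr1:78180291-78181006 reached 1.59 in that comparison and so passed. Its ratio without subtraction was 1.23, with an interval of 0.609 to 2.55 that includes equality. Its proliferation peak exceeded only 0.126% of the list in −log10 q. The summits lay at chr1:78180483 in proliferation and chr1:78180778 at 36 h. The genome-wide shares are without subtraction. At 72 h against 36 h, the 2 middle regions were lower and none was higher, where 3.7% of regions were lower and 19.6% higher.

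At Pax7, the strongest region of proliferating cells had fewer depth-scaled summit fragments in both differentiation libraries. The dominant region, chr4:139324987-139328464, was a peak of 3346 bp in proliferation and of 3129 bp at 36 h, while at 72 h it was split into 3 peaks with 1625 bp in all. Its summit held 72 fragments in proliferation (95% Poisson interval 56.3 to 90.7), 51 at 36 h (38.0 to 67.1) and 42 at 72 h (30.3 to 56.8). Depth-scaled, the values were 72.0, 42.7 and 38.3. The ratio to proliferation was 0.594 (0.406 to 0.862) at 36 h and 0.532 (0.355 to 0.789) at 72 h, with both intervals below equality. The local background at the summit differed too, at a pileup of 3.0 in proliferation, 1.25 at 36 h and 2.0 at 72 h on the scale of the input. With it subtracted the ratios were 0.61 at 36 h and 0.526 at 72 h. The authors' fold, taken over the local background of each list, was 12.4 in the proliferation list, 16.2 in the 36 h list and 9.52 in the 72 h list, and so was highest at 36 h, where the background was lowest. In proliferation this region's −log10 q exceeded that of 95.9% of the list, at 36 h 90.5% and at 72 h 80.1%.

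The next strongest region of proliferation lay at the low-coordinate end, the 3′ side of the window, at chr4:139271531-139273860. It had 50 summit fragments in proliferation (37.1 to 65.9), 37 at 36 h (26.1 to 51.0) and 28 at 72 h (18.6 to 40.5); scaled for depth, the later values were 31.0 at 36 h and 25.5 at 72 h. The ratio to proliferation was 0.62 (0.394 to 0.968) at 36 h and 0.511 (0.31 to 0.827) at 72 h. The third, chr4:139331124-139331588, had 32 fragments in proliferation and 20 at 36 h and was not called at 72 h. At equal signal 35.1 fragments (24.0 to 49.5) would have been found at its summit at 72 h, where 8 sufficed at the genome background and 11 at a background as high as the upper quartile of the 72 h peaks. The nearest 72 h peak lay 3.3 kb away. These 3 regions, which were the tallest of the locus in proliferation, were each lower at 36 h, and at 72 h were lower or not called. Regions picked by their proliferation value tend to be lower elsewhere by counting error alone. The intervals do not allow for this choice.

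On the 5′ side of the Pax7 window, chr4:139391670-139392099 had 23 summit fragments in proliferation, 22 at 36 h and 10 at 72 h. The 72 h peak was 163 bp wide and near the limit of calling. The depth-scaled ratio to proliferation was 0.802 (0.426 to 1.5) at 36 h and 0.397 (0.169 to 0.867) at 72 h. The high-coordinate 50 kb as a whole had 710 bp under peaks in the proliferation list, 2376 bp in the 36 h list and 163 bp in the 72 h list. It held 3, 8 and 1 peaks in the order of the stages, most of them short and low. The tallest 36 h peaks there lay in chr4:139418017-139418447 and chr4:139418736-139419297, with 23 and 25 fragments. The second of these also had a proliferation peak of 13 fragments, with a ratio of 36 h to proliferation of 1.61 (0.794 to 3.43), and the first lay 0.429 kb from that peak. The nearest 72 h peaks were 26.1 and 26.8 kb away.

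Other Pax7 regions were higher at 72 h than at 36 h. They are grouped here for this difference, and the intervals do not allow for that choice. At chr4:139275102-139275853 the summit had 24 fragments in proliferation, 14 at 36 h and 33 at 72 h. The ratio of 72 h to 36 h was 2.57 (1.34 to 5.19), and that of 72 h to proliferation was 1.25 (0.719 to 2.22). At chr4:139306754-139308130 there were 22, 18 and 28 fragments, with a ratio of 72 h to 36 h of 1.69 (0.904 to 3.25). The clearest late region was chr4:139360640-139361770, which had no proliferation peak within 6.99 kb, 11 fragments and 222 bp at 36 h, and 29 fragments and 1131 bp at 72 h. Its ratio of 72 h to 36 h was 2.87 (1.39 to 6.37). The 36 h peak exceeded only 3.41% of its list in −log10 q. The summits lay at chr4:139361593 at 36 h and chr4:139361193 at 72 h. At the signal of 72 h, 26.5 fragments (17.7 to 38) would have been found in proliferation. There 9 sufficed at the genome background and 14 at the upper-quartile background. At the signal of 36 h the number would have been 9.22 (4.6 to 16.5). This late region was the only region of either locus that both differentiation lists held and the proliferation list lacked. Beyond the 5 peaks with the highest −log10 q in each list, the authors' −log10 q at the Pax7 locus was 2.71 to 7.62 in proliferation, 2.38 to 10.9 at 36 h and 2.14 to 14.5 at 72 h.

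Of the 5 Pax7 regions called at every stage, 3 had at least 1.5 times fewer depth-scaled fragments at 72 h than in proliferation and none had 1.5 times more. The genome-wide shares given above for that comparison are 10.5% and 24.7%. At 36 h against proliferation, 3 of 5 were at least 1.5 times lower and none higher, where 19.1% and 15.1% of all such regions were. With local background subtracted, 4 of 5 were lower in that comparison, while the shares are without subtraction. Between 72 h and 36 h, 2 of 5 were at least 1.5 times higher and 1 was lower, where 19.6% and 3.7% were. The median ratio of 72 h to proliferation was 0.532 over the 5 Pax7 regions and 0.962 over the 6 Pax3 regions, compared with 1.14 over all 28908. With so few regions and 1 library per stage, this difference between the loci was not tested.

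**Figure D3:**
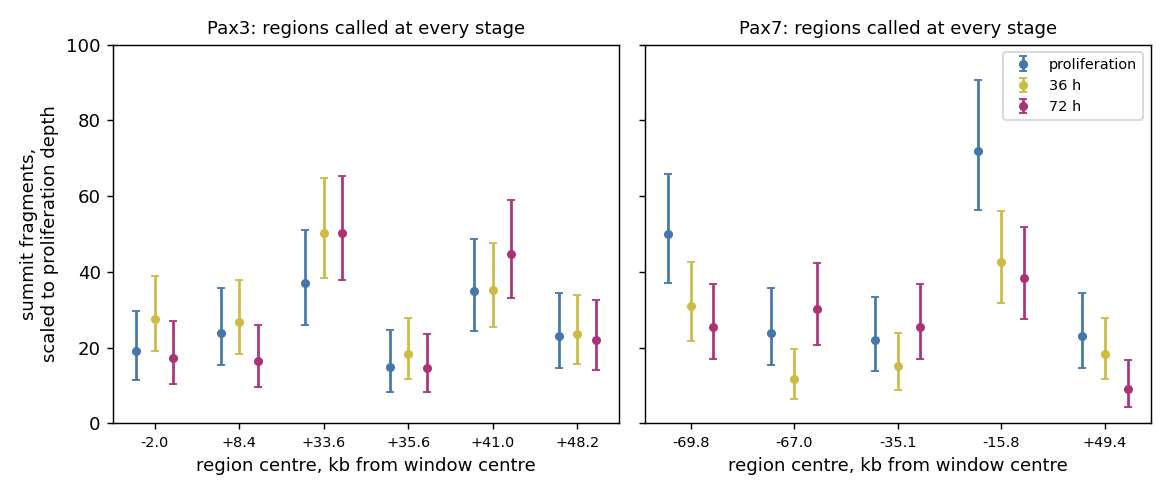
Summit fragments, scaled to the depth of proliferation, at the 6 Pax3 and 5 Pax7 regions called at every stage, placed by the distance of the region from the window centre. Points are single libraries and bars are 95% Poisson intervals. The Pax7 region nearest to the left of the centre had 72.0 fragments in proliferation, 42.7 at 36 h and 38.3 at 72 h, while the intervals of every Pax3 region overlap between stages.

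Regions that appeared in both differentiation libraries were scarce at the 2 loci, and short regions of the 36 h library were frequent. The Pax3 locus had 0 of 20 and the Pax7 locus 1 of 24 regions called in both differentiation lists but not in proliferation, a class that made up 22.3% of the 112926 regions of the genome. Regions called at 36 h only numbered 6 of 20 at Pax3 and 9 of 24 at Pax7, against 15.9% of all regions. Regions called at 72 h only numbered 1 at Pax3 and 4 at Pax7, with 23.9% genome-wide, and regions called in proliferation only numbered 4 and 1, with 6.7%. Regions of every stage made up 6 of 20 and 5 of 24, with 25.6% genome-wide. Neighbouring short regions are not independent of each other. After merging across gaps of up to 1 kb, the loci held 11 (Pax3) and 13 (Pax7) regions. Of these, 3 and 5 were called at a single stage. The genome-wide shares given here are without this merging and cannot be set beside these counts. All of the 36 h only regions were low at Pax3, with 12 to 16 summit fragments, while the highest at Pax7, chr4:139338406-139338893, reached 27 (17.8 to 39.3). It had no proliferation peak within 6.82 kb and no 72 h peak within 10.6 kb.

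How far a missing call can be read depends on depth. Counting each region once for each stage without a peak, there were 25 such cases at Pax3 and 33 at Pax7. These counts are given for the loci only, with no genome-wide share. A case was taken as resolved if the low end of the fragments expected at equal signal reached the number needed at the genome background. Where both other stages held a peak, reaching it from either was enough. By this measure 11 of 25 cases at Pax3 and 18 of 33 at Pax7 were resolved. With the number needed at the upper-quartile background of the list in its place, 3 of 25 and 8 of 33 were. At the genome background, 0 of 7 proliferation cases at Pax3 and 4 of 14 at Pax7 were, whereas at 72 h 6 of 12 and 9 of 12 were. The short 36 h only regions of Pax3 could therefore have been present in proliferation without being detectable at this depth. Among resolved cases at Pax3, chr1:78089634-78090239 had 20 fragments in proliferation, no 36 h peak within 34.5 kb, and 11 fragments at 72 h. It was resolved from proliferation only, since from the 72 h signal the low end at 36 h was 5.98, with 9 needed. At the other end of the window, chr1:78213682-78214039 had 21 fragments in proliferation and 12 at 36 h and was not called at 72 h. There 23.0 fragments (14.2 to 35.2) would have been found at the signal of proliferation. From the 36 h signal the low end was 5.69, with 8 needed.

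Local background moved with the stages at these peaks as elsewhere. As a multiple of the genome background, its median at Pax3 peaks was 1.46 in proliferation, 1.13 at 36 h and 1.18 at 72 h. At Pax7 peaks it was 1.6, 1.0 and 1.0 times, while the medians over whole lists were 1.94, 1.06 and 1.16 times. A higher background raises the number of fragments needed for a call, and its part in the lower peak number of Pax7 in proliferation was not tested. The share of cells at each state of differentiation was not measured either, so fewer acetylated cells and less acetylation per cell cannot be told apart.

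Windows of 150 kb around muscle regulators showed what the same libraries gave at loci of the committed lineage. These windows were placed by hand from general knowledge of mm9 and serve as a check of the labels. At Myog, which switches on in differentiating muscle cells, peaks covered 3553 bp in the proliferation list, 48273 bp in the 36 h list and 42848 bp in the 72 h list. Coverage at Myog was thus higher in both differentiation libraries than in proliferation, the direction their labels imply. At Myod1, the regulator that C2C12 myoblasts already express, the lengths were 11804, 38715 and 46096 bp. At Myf5 and Myf6, neighbouring genes of the same factor family, they were 10945, 12894 and 13411 bp. The ratio of 72 h to proliferation was 0.864 at Pax3 and 1.01 at Pax7, against 1.23 at Myf5 and Myf6, 3.91 at Myod1 and 12.1 at Myog. In proliferation, Pax3 and Pax7 had more covered length than Myog, but already less than Myod1 and less than the window of Myf5 and Myf6. At 72 h they had less than each of the 3 muscle regulator windows.

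**Figure D4:**
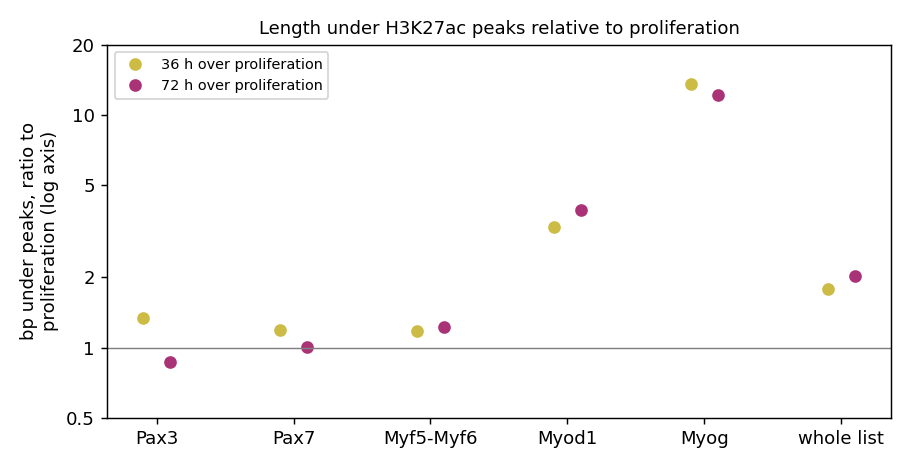
Length under H3K27ac peaks at 36 h and 72 h relative to proliferation, on a log axis, for the Pax3 and Pax7 windows, 3 windows around muscle regulators and the whole lists. Each point is a ratio of 2 libraries, and the line marks equality. Pax3 and Pax7 lie at 0.864 and 1.01 for 72 h, below the whole list at 2.03.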

How the data were processed

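Peaks had been called by the authors in each H3K27ac library on its own, and the submitters' processing notes name BWA, MACS2, deepTools and the build mm9, with no version or setting. Per the narrowPeak column order, the deposited columns give position, fold (a ratio of ChIP to background pileup), −log10 p, −log10 q and a score, which was not used. Deposited q was ranked within a list. Deposited fold and q were also given for each list and used as cuts, without adjustment for depth between lists. Input libraries were not analysed here.

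The whole number of fragments at each summit and the local background were solved from fold and −log10 p under MACS2's Poisson model with 1 added to each pileup, which returned the deposited −log10 p of 100%, 100% and 99.99% of peaks (proliferation, 36 h, 72 h) within a relative tolerance of 0.0003. On simulated data 99.95% and 100% of 2000 fragment numbers were recovered. Relative depth is genome background over ChIP scale factor, assuming the input as control and 1 genome size setting. Ratios of fragments have exact binomial intervals at 95%, and no interval allows for the summit being a maximum.

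By the naming rule, the 5 peaks with the highest −log10 q per list and locus are described through their merged regions and the rest by their range; other regions are named for what they show, after their values were seen. Members, windows and lists were chosen with earlier results of these data known. Background subtraction and the fragments expected at uncalled regions were added after seeing the data. Python 3.11.15, numpy 2.4.6, pandas 2.3.3 and scipy 1.17.1 were used.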

Additional observations from a re-analysis of the deposited data

How the results depend on the processing

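Of 114 values recomputed under the alternatives, 91 stayed within 1.5 times of the reported one and 23 did not. The 91 include all genome-wide window counts and the settings that left every peak of the loci in place. Peak number at the loci was less stable. It stayed in 2 of 6 cases under each of the −log10 q, fold and equal-number settings. With a −log10 q of at least 5, peak numbers were 8, 10 and 6 at Pax3 in the order of the stages and 8, 11 and 12 at Pax7. With a fold of at least 5 they were the same at Pax3 and 9, 11 and 13 at Pax7. With lists equal in number there were 19, 9 and 6 peaks at Pax3 and 11, 10 and 10 at Pax7. The 36 h maximum in Pax7 peak number thus did not hold under these settings. Widening the windows by 50 kb on each side gave 17 (proliferation) and 39 (36 h) peaks at Pax7, and 13301, 20974 and 13975 bp under peaks. Merging across 1 kb gave 11 regions at Pax3 and 13 at Pax7, with 3 and 5 of a single stage. No genome-wide share is given for regions merged in this way. With a −log10 q of at least 5 there were 13 regions at Pax3, and 2 at Pax7 with a peak at every stage. The causes were not tested beyond the smaller or longer sets these settings make. Covered length at Pax3 was lower at 72 h than in proliferation under every alternative that changed it, at 0.582 to 0.884 times. The lowest ratio came with lists equal in number, which shortens the 72 h list and leaves the proliferation list whole. At Pax7 the ratio of 72 h to proliferation lay on either side of equality, from 0.826 with lists equal in number to 1.05 in wider windows. Coverage at 36 h was above proliferation at Pax3 except with lists equal in number (0.977 times), and at Pax7 it was below with those lists (0.908), a −log10 q of at least 5 (0.989) or a fold of at least 5 (0.963). Requiring the summit inside the window or scaling to the proliferation depth left every peak of both loci in place. No paired analysis was possible because each stage has 1 library. Depth limits what the short regions show, since most had 10 to 18 summit fragments and 8 or 9 sufficed for a call.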

Other observations

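The sequence around the Pax7 window was uneven. On the low-coordinate side, the 50 kb next to the window held 6 peaks with 4995 bp in proliferation, 19 peaks with 11081 bp at 36 h and 8 peaks with 5575 bp at 72 h. In the full lists, the larger number of 36 h peaks thus also held beyond the window in that direction. On the high-coordinate side there was no peak in 50 kb at any stage, and the nearest peak lay 636 kb away in the proliferation list, 672 kb in the 36 h list and 637 kb in the 72 h list. Above the Pax3 window there was likewise no peak in 50 kb, and the nearest lay 123 kb away in the proliferation list and 124 kb away in the 36 h and 72 h lists. Below the Pax3 window the 50 kb held 6, 2 and 3 peaks in the order of the stages. Both loci thus bordered a stretch without H3K27ac peaks on the high-coordinate side. Inside the windows, the longest stretch without a peak in any list was 35.0 kb at Pax3, from chr1:78090240-78125194, and 30.9 kb at Pax7, from chr4:139275854-139306753.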
